A study of Macaca mulatta with 38 samples.

Results

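Recurrent B-only barcodes are lentiviral tags that were read repeatedly in the B cells of 1 rhesus macaque and were listed at 0 in all of its T cell, granulocyte and monocyte libraries. They were selected on the counts themselves: a count above 0 in at least 2 of the 8 B libraries, with at least 1 of these libraries of day 119 or later, and 0 in each of the 23 T, Gr and Mono libraries. 4084 of the 44423 deposited sequences (9.19%) met this rule. They were 11.3% of the 36063 barcodes listed in any B library and 23.4% of the 17425 barcodes that recurred in B in the same way. The remaining 13341 recurrent B barcodes had a count in at least 1 T, Gr or Mono library and are called shared barcodes here. Since the rule read the B, T, Gr and Mono counts, those counts are described without a test, apart from a comparison of later B shares by listing at day 32.

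All samples came from 1 male animal, ZL34, aged 4 years. Its CD34+ cells, mobilised with G-CSF and AMD1300, were transduced with the barcoded library at a multiplicity of infection of 25 and reinfused after TBI, and cidofovir was given weekly at 5 mg/kg, so that every library shares this history. The 38 libraries were made from peripheral blood DNA and comprise 9 of T cells, 8 of B cells, 7 of Gr (granulocytes), 7 of Mono (monocytes), 5 of nRBC (nucleated red blood cells), 1 of EOS (eosinophils) and 1 of CD34p (CD34+ cells), from day 32 to day 553, with the usual meaning of these abbreviations assumed. There is 1 library for each cell type and day, so no value below has a biological replicate, and spreads are over days. Barcode counts carry no expression values, so the labelled cell types could not be checked against markers.

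A vector barcode is inherited by all descendants of the cell that received it, and its share of reads follows the share of those descendants among barcoded cells. Granulocytes and monocytes live briefly and are renewed from the marrow, whereas B cells arise there from lymphoid progenitors and can afterwards persist in the periphery as long-lived memory cells that divide without return to the marrow. At a high multiplicity of infection 1 cell can carry several barcodes, so barcodes are not independent clones.

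The limit of counting was high. The smallest count above 0 in the table is 101, so a listed 0 was taken to hide up to 100 reads. This cutoff is read from the values and is not stated in the sources used here. In the B libraries, with 789584 to 3365960 reads, it corresponds to 0.00297% to 0.0127% of reads, and the B library of day 494 was the shallowest of the 8. Shares below are percent of the reads of a library.

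The members were numbered b1, b2 and so on by their mean share over the 8 B libraries. The sequences shown are the bases before the sequencing adapter, written 5′ to 3′, with the common start in lower case and the variable part in capitals. The 5 members with the highest mean share lead, since they set the upper end of the class.
b1: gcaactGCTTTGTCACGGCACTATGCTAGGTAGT
b2: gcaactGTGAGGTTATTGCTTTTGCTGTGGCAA
b3: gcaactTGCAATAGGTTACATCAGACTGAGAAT
b4: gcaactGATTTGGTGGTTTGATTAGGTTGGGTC
b5: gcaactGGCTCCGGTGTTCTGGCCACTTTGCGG

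The next 3 had the most later B libraries among the members listed at day 32, and so show the longest continued B listing.
b8: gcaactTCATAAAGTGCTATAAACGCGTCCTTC
b16: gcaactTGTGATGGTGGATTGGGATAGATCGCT
b68: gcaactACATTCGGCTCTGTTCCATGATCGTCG

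The last 4 are the only members with a count in an nRBC library.
b90: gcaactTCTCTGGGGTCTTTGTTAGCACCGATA
b1508: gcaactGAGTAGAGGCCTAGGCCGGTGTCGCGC
b3482: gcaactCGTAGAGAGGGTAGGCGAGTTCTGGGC
b4034: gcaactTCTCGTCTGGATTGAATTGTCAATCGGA

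As sequences, the members resembled the shared barcodes in start, adapter position and GC content. 4035 of the 4084 (98.8%) began with GCAACT and 49 with GGCAAC, against 98.3% beginning with GCAACT among the shared barcodes. The adapter began after 33 bases in 3278 members (80.3%) and in 79.9% of the shared barcodes, and it was not found intact in 72 members. GC content of the variable part was 53.7% ± 9.73 (SD over 4084 sequences) and 53.7% ± 9.67 in the shared barcodes. No member lay within 5 substitutions of a sequence with more total reads: the lowest distance over 50 bases was 6 and the median 10. The median was 11 in the shared barcodes and 10 over all sequences. A distance under 10 was found in 766 of 4084 members, 1140 of 13341 shared barcodes and 8780 of all 44423 sequences. For the members, a comparison with sequences shifted by 1 base gave a lowest distance of 8. The members are thus separate sequences by this measure, and no pair in the table differed by 1 base or by a shift of 1 base, so that there was nothing to merge.

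The class was large and individually faint. Day 32 listed 2206 members in B and day 119 listed 1012. Day 187 listed 1956, day 266 had 1199 of them and day 365 had 875. Day 393 listed 1581, day 494 only 146 and day 553 again 931. They were 13.9% of the barcodes of the day 32 library and 10.6% to 14.5% of those of the later libraries, apart from 4.43% at day 494. The median share of a listed member was lowest at day 393 (0.00401%) and highest at day 494 (0.0171%), where the limit of counting was also highest. In the other B libraries it lay between 0.00427% and 0.00818%. The highest share of any member in any B library was 0.0656%, that of b1 at day 494. The shared barcodes reached 7.73% at day 553.

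Summed over members, the class held 13.7% of B reads at day 32 and 4.98% at day 553. Between them it stood at 9.08% on day 119 and 10.3% on day 187. Day 266 had 8.76% and day 365 had 5.67%, followed by 8.02% on day 393 and 2.98% on day 494. The exact Clopper-Pearson 95% interval was 13.7% to 13.8% at day 32 and 4.96% to 5.00% at day 553, covering the error of counting alone, because reads from PCR that carry no molecular identifier do not stand for separate molecules. The sum was thus highest at day 32 and lowest in the shallow library of day 494, with a median of 8.02% (SD 2.63) over the 7 later libraries. Another 6 barcodes, those with the largest average nRBC share, held 41.4% of B reads at day 553 and 0.0152% at day 32. With those 6 taken out of the denominator, the class held 8.49% on day 553, 13.7% on day 32, 9.80% on day 266 and 3.14% on day 494. Outside those 6 barcodes, the share at day 553 thus lay above those of days 365 (6.11%), 393 (8.30%) and 494 and below those of the other 4 days. The shared barcodes held 40.0% of B reads at day 32 and 73.9% to 96.0% later.

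No member dominated. The effective number of members is the exponential of the Shannon entropy of their shares and equals the number listed when all shares are equal. It was 2028 of 2206 on day 32, 951 of 1012 on day 119, 1773 of 1956 on day 187 and 1116 of 1199 on day 266. The later libraries gave 790 of 875 (day 365), 1410 of 1581 (day 393), 134 of 146 (day 494) and 847 of 931 (day 553). As a percent of the number listed, this evenness stayed between 89.2% and 94.0% in the 8 libraries. The same measure for shared barcodes was 89.4% on day 32, 76.2% on day 119, 72.1% on day 187 and 45.7% on day 266. It was 55.3% on day 365, 62.5% on day 393, 72.6% on day 494 and 7.15% on day 553. On day 553 the 6 barcodes with the largest average nRBC share held 41.4% of B reads. The Gini coefficient, which is 0 when all shares are equal, was 0.186 to 0.231 for the members and 0.252 to 0.656 for the shared barcodes. The 10 largest members held 1.42% of the member reads at day 32, 2.58% to 4.86% in the later libraries other than day 494, and 16.2% at day 494, where fewer members were listed. Counts from 1 to 100 are absent from the table and abundant barcodes were rarely B-only, and the part of both in this evenness was not tested.

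The share of recurrent barcodes that were B-only fell with abundance. Of the 508 recurrent B barcodes with a mean B share of up to 0.001%, 43.1% (219) were B-only. Of those above 0.001% and up to 0.002%, 39.0% (2588 of 6633) were B-only. The figure was 18.6% (1155 of 6206) up to 0.005%, 4.82% (113 of 2345) up to 0.01%, 0.718% (9 of 1254) up to 0.02%, and 0 of 479 above that. It also fell with the number of B libraries, from 2 to 7. 2884 members (70.6%) were listed in exactly 2 B libraries, where B-only barcodes were 38.0% of 7599. 823 were listed in 3 B libraries (22.3% of 3685), 256 in 4 (12.1% of 2110), 85 in 5 (5.65% of 1505), 33 in 6 (2.89% of 1142), 2 in 7 (0.195% of 1027) and 1 in all 8 (0.280% of 357). Most of the class thus lies at its own threshold. Just outside it, 6191 barcodes had a count in a single later B library and none in T, Gr or Mono. Their median share on that day was 0.00444%, against 0.00475% on the listed days of the members with 2 B libraries. On the other side of the rule, 3884 recurrent B barcodes had a count in exactly 1 T, Gr or Mono library. That count had a median of 140 reads and a lowest value of 101, at the cutoff. The library was of day 32 for 1978 of them and the T library of day 119 for 645.

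What a 0 in another lineage excludes depended on the day. At days 119 and 553, all 1012 and all 931 listed members had a B share above the limit of the T, Gr and Mono libraries of the same day. This was set by depth, since the B limit itself (0.00508% and 0.00297%) lay above those 3 limits. Any barcode listed in B on those days, shared or not, would pass. The count of members above all 3 limits was 1170 of 1199 on day 266, 139 of 146 on day 494, 1535 of 1956 on day 187 and 578 of 875 on day 365. At day 32 it was 635 of 2206 (28.8%), so that for most members of that day a share as high as that in B would not have been listed in at least 1 of T, Gr and Mono. 3596 members (88.1%) exceeded all 3 limits on at least 1 of the 7 days that the 4 lineages share. This number includes every member listed on day 119 or 553, which passed by depth alone. As a mean over those 7 days, however, only 125 members (3.06%) had a B share above the mean limit in each of T (0.00514%), Gr (0.00372%) and Mono (0.00368%). For the others, the mean B share could be matched in at least 1 of these lineages without a count. Depth was not the only limit. The Gr libraries of days 365, 494 and 553 listed 69, 22 and 18 barcodes of any kind. The Mono libraries of these days listed 197, 12 and 13. Nearly every barcode listed in B on these days was thus at 0 in them, so such a 0 says little about the members.

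The most abundant members were each listed on some days and at 0 on others. b1 was listed at 0 up to day 266 and held 0.0145% on day 365, 0.0135% on day 393, 0.0656% on day 494 and 0.0248% on day 553. Its mean over the 7 shared days was at least 4.03-fold that in Gr, at least 4.07-fold that in Mono and at least 2.92-fold that in T, with each 0 set to 100 reads. On days 365, 494 and 553, however, Gr listed only 69, 22 and 18 barcodes and Mono 197, 12 and 13. The 0 of b1 in Gr and Mono on these days was thus shared with nearly every B barcode. b4 was listed on the same days, with 0.00735% at day 365, 0.0115% at day 393, then 0.0476% and 0.0325%. Both were thus listed in the 4 last B libraries and in none before, with the highest share at day 494.

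b2 was highest early. It held 0.00420% on day 32, 0.0278% on day 119, 0.0482% on day 187 and 0.0232% on day 266, was at 0 at days 365, 393 and 494, and held 0.00440% on day 553. Its 7-day mean was at least 4.13-fold that in Gr and at least 2.99-fold that in T. b3 held 0.00676% on day 119, 0.00837% on day 187, 0.00322% on day 393, 0.0624% on day 494 and 0.0184% on day 553, with 0 at the other 3 days. b5 held 0.00475% on day 32, 0.00924% on day 119, 0.0131% on day 266, 0.0490% on day 494 and 0.0148% on day 553, with 0 at days 187, 365 and 393. Among the 5 most abundant members, 4 were thus highest at day 494 and b2 at day 187. These members were ranked by their mean share over the B libraries, which a high value in a single library raises. A listing at day 494, in the shallowest B library, needed a share above 0.0127%, against at most 0.00508% in the others. The peak at day 494 was thus in part set by the choice.

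The members chosen for the most B libraries from day 32 on had an SD over the 8 B libraries of 0.00485 (b8), 0.00667 (b16) and 0.00312 (b68) percent. The 5 most abundant members had 0.0163 to 0.0225. Both sets were chosen on these same B values, for few days at 0 or for a high mean. The difference in SD thus follows in part from the choice. The SD is also not scaled to the mean, which was 0.00597% for b68 and 0.0148% for b1. b8, the only member listed in all 8 B libraries, held 0.0115% on day 32, 0.00996% on day 119, 0.00400% on day 187, 0.00520% on day 266, 0.00653% on day 365, 0.0172% on day 393, 0.0142% on day 494 and 0.0149% on day 553. Its mean was 0.0104% ± 0.00485 (SD, n = 8 days), and its 7-day mean was at least 2.54-fold that in Gr and at least 1.84-fold that in T. b16 was listed on all days but 494, from 0.00463% on day 553 to 0.0208% on day 365, with 0.00867% on day 32. b68 was also listed on all days but 494, from 0.00389% on day 393 to 0.00951% on day 365, with 0.00486% on day 32. The 0 of both at day 494 allows up to 0.0127%, which is above every listed share of b68. b6 and b15 had counts in 6 B libraries each, neither at day 32. b6 was highest at day 494 (0.0220%) and b15 at day 119 (0.0239%).

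In 6 B libraries the leading member had counts in 2 or 3 B libraries in all. b147, the highest at day 119 with 0.0331%, was listed otherwise only at day 32 (0.00514%). b154, the highest on day 266 with 0.0292%, was listed otherwise only on day 365 (0.00853%), and b136, the highest on day 365 with 0.0326%, only on day 119 (0.00665%). b24 led on day 393 with 0.0512%, after 0.00354% on day 187 and 0.0122% on day 266. b48 led at day 553 with 0.0354% and was listed otherwise only at day 494 (0.0172%). b384 led at day 32 with 0.0222% and was listed again only at day 187 (0.00427%). No member was the highest in 2 of the 8 libraries.

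Of the members listed at day 32, most were listed in 1 later B library. 2206 members (54.0%) had a count in the B library of day 32, against 5790 of the 13341 shared barcodes (43.4%). A member of day 32 needs 1 other B library and any other member needs 2, so the rule itself favours members of day 32. The same holds for the members of each other B day. The percent also depended on the limit of counting: it was 31.4% with 200 reads required, 8.55% with 1 limit on the share in every library and 8.71% after thinning to equal totals. Of the 2206, 1546 (70.1%) were listed in 1 later library, 457 (20.7%) in 2, 132 in 3, 51 in 4, 17 in 5, 2 in 6 and 1 in all 7. 884 of them (40.1%) were listed on day 187, 648 (29.4%) on day 393, 497 (22.5%) on day 266, 428 (19.4%) on day 119, 365 (16.5%) on day 553, 306 (13.9%) on day 365 and 36 (1.63%) on day 494. For shared barcodes of day 32 the same figures ran from 18.3% at day 494 to 55.8% at day 187. The most frequent pair of days was 32 and 187, with no other day, in 508 members (12.4%), followed by 32 and 393 in 318 and 32 and 266 in 230. The listed days of a member spanned a median of 234 days, and 735 members (18.0%) spanned 365 days or more. Among B-only barcodes of day 32, 29.1% were listed again in B, and 5383 were not. The median day 32 share was 0.00490% in the members and 0.00479% in those 5383.

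Apart from members of day 494, listing at day 187 ranged from 36.9% to 40.8% with the day it was looked up from. Listing at day 393, again without day 494, ranged from 29.4% for members of day 32 to 38.6% for members of day 365. Of the members listed at day 32, 40.1% were listed at day 187. The figure at day 187 was 39.8% for those listed at day 119, 40.4% for day 266, 40.8% for day 365, 37.5% for day 393, 36.9% for day 553 and 30.8% for the 146 of day 494. Listing at day 393 was found in 29.4% of the members of day 32, 33.3% of day 119, 30.3% of day 187, 30.9% of day 266, 38.6% of day 365 and 33.7% of day 553. Day 494 stood apart. Of its 146 members, 24.7% were listed on day 32, 36.3% on day 365, 60.3% on day 393 and 73 barcodes on day 553. The shared barcodes of day 494 had 34.3%, 79.3%, 85.8% and 73.6% on these days, also lowest on day 32 and highest on day 393. Conversely, listing at day 494 was found in 1.63% of the members of day 32, 3.56% of day 119 and 2.30% of day 187, and in 6.06% of day 365, 5.57% of day 393 and 7.84% of day 553, so that it was more frequent among members of the nearer days. For the shared barcodes, listing at day 494 was likewise 18.3% from day 32 and 40.2% from day 553. These percentages follow the number listed on the day looked up, and the rule, which asks for at least 2 days, raises all of them. In the shared barcodes listing at days 187 and 393 was more frequent from each other day, for example 66.0% at day 187 for barcodes of day 119 and 69.2% at day 393 for barcodes of day 365.

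Later B shares were also compared by listing at day 32. 2538 members had counts in 2 or more B libraries of day 119 or later, a condition that does not read day 32. 660 of them were listed at day 32 and 1878 were not. The mean share per barcode was 0.00334% against 0.00281% on day 119, 0.00315% in both on day 187, 0.00300% against 0.00278% on day 266, and 0.00195% against 0.00196% on day 365. It was 0.00262% against 0.00260% on day 393, 0.00103% against 0.00120% on day 494 and 0.00154% against 0.00167% on day 553. The mean log2 ratio was 0.0039 (SD 0.15, n = 7 days, two-sided exact sign-flip permutation p = 0.875, adjusted p = 0.875 over 2 tests), higher on 3 of 7 days, with a 95.3% interval from −0.12 to 0.13. The smallest p that 7 days allow is 0.0156. The difference did not pass, and its interval spans 0. The rule that chose the members also read these later B counts, so no absence of a difference follows from this. The percent of barcodes listed per day differed by 0.517 points (SD 2.68 over 7 days). Since both sets were required to have 2 or more later libraries, that requirement held this second difference near 0 and it is given as a description. It also bears on the shares, in which a day without a listing counts as 0. The days are serial samples of 1 animal, so the p measures only the variation among its days.

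To see the class in libraries that did not choose it, the rule was also applied to days 266 to 553 alone and the barcodes were looked up at days 32, 119 and 187. 2927 barcodes were recurrent in B and at 0 in T, Gr and Mono from day 266, and 6347 were recurrent in B with a count elsewhere. At day 187 the B-only barcodes were listed in 6.90% (202) of cases in Gr, 4.48% (131) in Mono and 3.07% (90) in T, against 52.0%, 34.5% and 16.4% of the shared barcodes. In the B library of that day they were listed in 40.2%, against 68.2%. At day 119 they were listed in 1.47% in Gr, 0.171% (5 barcodes) in Mono and 18.3% in T, against 25.8%, 11.3% and 36.6%, and in B in 27.9% against 53.3%. Of all 44423 sequences, 4.53% were listed in Gr, 1.82% in Mono, 19.0% in T and 18.8% in B at day 119. The B-only barcodes were thus listed less often than the shared barcodes in all 4 lineages at both days, while against all sequences they were near in T at day 119 and higher in B. With the rule applied from day 365, which lets in barcodes with counts elsewhere at day 266, B-only listing at day 187 was 26.8% in Gr and 16.9% in Mono, against 56.4% and 38.2% of the shared barcodes. At day 119 it was then 9.13% in Gr and 2.73% in Mono, against 30.7% and 14.4%.

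At day 32 the B-only barcodes were listed in 31.1% of cases in B, 23.9% in Gr, 32.6% in Mono and 1.20% in T, and the shared barcodes in 33.1%, 26.2%, 34.7% and 1.23%. The T library of that day listed 525 barcodes in all. Over all sequences, 35.6% were listed in B, 19.9% in Gr, 23.0% in Mono and 1.18% in T at day 32, and 30.3% in B, 10.6% in Gr, 6.93% in Mono and 4.86% in T at day 187. Of the barcodes that were B-only from day 266, 953 had a count in Mono and 700 in Gr at day 32. In all, 840 (28.7%) had a count in T, Gr or Mono at day 119 or 187, against 4888 (77.0%) of the shared barcodes, and 1176 (40.2%) of the 2927 were B-only by the rule over all days. The mean B share from day 266 had a median of 0.00260% in the B-only and 0.00615% in the shared barcodes, and its part in these figures was examined by keeping only barcodes within the middle range (25th to 75th percentile) of the B-only class, a choice made after the data were seen. There the medians were 0.00260% (1464 barcodes) and 0.00296% (1711). Listing at day 187 was 5.53% against 30.2% in Gr, 3.28% against 17.5% in Mono, 3.07% against 10.3% in T and 37.6% against 52.0% in B. At day 32 it was 25.4% against 26.7% in Gr and 32.0% against 35.2% in Mono. These are single libraries of 3 days, a number that cannot reach 0.05 in a sign-flip test, so no test was made.

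The nRBC, EOS and CD34p libraries, which the rule did not read, listed few barcodes of any kind and almost no members. All 4 listed members were in the nRBC library of day 393, and 0 of 4084 were listed in the other 4 nRBC libraries (days 266, 309, 494 and 553), in EOS at day 494 or in CD34p at day 553. At day 393 b90 held 0.00962% of nRBC reads (366 reads), b1508 0.00786% (299), b4034 0.00389% (148) and b3482 0.00284% (108). In the B library of the same day b90 held 0.00427%, b1508 0.00577% and b4034 0.00322%, and b3482 was listed at 0. That nRBC library listed 201 of the 44423 sequences, the most of the 5, and 176 of them were shared barcodes. It thus listed 0.0979% of the members and 1.32% of the shared barcodes. The other 6 libraries listed 9 to 36 of the 44423 sequences, of which 9 to 36 were shared. With so few listed, 0 members in any 1 of them says little about the class. With 3536732 to 3832849 reads, a 0 in them could hide 0.00261% to 0.00283%. b90 was also listed in 6 B libraries, at 0.00397% to 0.0144% with 0 at days 119 and 494, and the other 3 in 2 each.

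Membership depended on the depth of counting. With every library thinned to 766039 reads and counts under 101 set to 0, 838 barcodes met the rule, and 75 of them (8.95%) were members of the list above. The other 763 had a count in T, Gr or Mono in the full table. With a count required to exceed 0.0131% of reads in every library, 854 met the rule, of which 71 were members. With 200 reads required, 1804 met it, of which 505 were members. The B-only part of the recurrent barcodes was 28.2%, 28.7% and 28.1% in these settings, against 23.4% as reported. Thinning started from counts already cut at 101. The size of the class relative to recurrent B barcodes thus lay between 23.4% and 28.7%, while most of its members changed with the limit.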

How the data were processed

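Per the labels' protocols, PCR of 28 cycles on 200 ng of extracted DNA retrieved the barcodes. Values are the authors' deposited read counts for 44423 sequences (50 bases each) in 38 libraries, recognised as counts because they are whole and have unequal sums. The program that extracted or merged barcodes, and the reason for the cutoff, were not given in the sources used here. Column sums, 766039 to 3832849, are reads of kept barcodes and not whole depths.

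Libraries were grouped by cell type and day in the labels. From the deposited counts, shares, listings, effective numbers and Gini coefficients were computed with Python 3.11.15, pandas 2.3.3, numpy 2.4.6 and scipy 1.17.1. The rule, the day 32 comparison and the sign-flip test were tried on simulated counts. The effective number and the Gini coefficient were checked on equal values only, and the calculation of shares was not checked in this way. The day 32 comparison of shares took all sign flips of the 7 daily values (exact permutation, both sides counted), with Benjamini-Hochberg adjustment that counts the comparison of listings as a second test, and an interval from the ordered subset means. Sequence distances are counts of substitutions to any sequence with more total reads.

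The class and its comparisons were chosen with earlier results of these data known. Members named were the 5 with the highest mean share, the 5 in the most B libraries, the highest in each B library, the 3 of day 32 with the most later libraries, and those with counts in nRBC, EOS or CD34p. Alternatives were other count limits, thinning, merging (no sequence qualified), 3 libraries, other lineage conditions and leaving out each B library. The labels name no batch to test.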

Additional observations from a re-analysis of the deposited data

Results flagged for a closer look

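Among 27 series of values over the 8 B libraries, 10 had a library whose gap to the nearest other exceeded Dixon's 95% critical value (0.526). Chance flags about 1 series in 20, and shares with many 0 values are skewed, so such flags are common for single barcodes.

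The B library of day 494 accounts for 5 of the 10. There the median share of a listed member was 0.0171%, against at most 0.00818% in the others, and the 10 largest members held 16.2% of member reads, against at most 4.86%. It was also the shallowest B library (789584 reads) and listed 146 members. b1 held 0.0656% there, with 0.0248% as its next highest value, b3 0.0624% with 0.0184% next, and b5 0.0490% with 0.0148% next. b1, b3 and b5 were named for a high mean share, and b1 also as the highest at day 494. Their high values there were thus in part set by the choice. The part of depth in the values of day 494 was not tested.

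The other 5 were members with a single high library. b24 held 0.0512% at day 393 (next 0.0122%), b136 0.0326% at day 365 (next 0.00665%) and b147 0.0331% at day 119 (next 0.00514%). b154 held 0.0292% at day 266 (next 0.00853%) and b384 0.0222% at day 32 (next 0.00427%). Each was named because it was the highest in that library, so a high value there was set by the choice.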

How the results depend on the processing

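The number of members, 4084, was 1804 at 200 reads or more, 854 above 1 share in every library, 838 after thinning, 1200 with 3 or more B libraries and 6566 with no condition on T. It was 2538 to 4054 without 1 B library, lowest without day 32, and within 1.5 times of 4084 without each of the other 7. Without a condition on T, Gr or Mono the median later summed share of 8.02% became 15.0%, 11.6% and 11.3%, and with 3 or more B libraries 4.01%. The median effective number of 951 became 311 above 1 share, 304 after thinning, 514 at 200 reads, 466.3 with 3 or more B libraries and 1742 with no condition on T. The percent listed at day 32, 54.0%, was 31.4% at 200 reads, 8.55% above 1 share, 8.71% after thinning, 51.2% with no condition on T, and 54.4% to 59.0% without 1 later B library. The 4 members in nRBC became 2 above 1 share, 1 after thinning, 1 with 3 or more B libraries, 0 by construction with those libraries in the rule, 9 with no condition on T or on Gr, and 2 to 4 without 1 B library.

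The comparison of later shares by day 32 listing did not pass under any alternative run (adjusted p 0.562 to 1, exact sign-flip permutation). The sign of the log2 ratio was unsettled: −0.040 with 3 or more later libraries, −0.15 at 200 reads, and −0.025 to 0.043 without 1 later B library. With the rule applied from day 365, which also lets in barcodes with counts elsewhere at day 266, the held-out listing of B-only barcodes was 34.9% and 50.2% in B at days 119 and 187, 9.13% and 26.8% in Gr, and 2.73% and 16.9% in Mono. Within the middle range of share, chosen after seeing the data, it was 25.3% and 37.6% in B, 5.53% in Gr at day 187 and 3.28% in Mono at day 187. The cause of these shifts was not tested, except that a higher limit lists fewer barcodes. Depth limits every statement about a 0, most of all at day 32, and at day 494 in T and B. A 0 in Gr or Mono from day 365 on is further limited, since these libraries listed few barcodes of any kind.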
